A study of Mus musculus with 9 samples.

Results

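Enzymes and regulators that break down the branched-chain amino acids were followed in mouse hearts after ischemia and reperfusion. The set held 10 genes, Bcat2, Bckdha, Bckdhb, Dbt, Bckdk, Ppm1k, Ivd, Mccc1, Mccc2 and Hibch. They were chosen by symbol from the 54532 genes of the count table, each symbol was found once, and all 10 passed the filter on low counts. The study sequenced total RNA of hearts, with 3 mice in each of 3 groups, all of them C57BL/6J males of wild-type genotype and 8 to 10 weeks old. In the sham group the chest was opened and a suture was passed around the left anterior descending coronary artery without being tied. In the MIRI (myocardial ischemia/reperfusion injury) group the artery was tied for 30 min and blood flow was then restored for 24 h. In the GXNI group the same operation was combined with Guanxinning injection, a preparation of Danshen and Chuanxiong, at 9 mL/kg. Drug or normal saline was given through the tail vein, so that the sham and MIRI mice received saline.

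Leucine, isoleucine and valine share the first steps of their breakdown, which run in mitochondria. BCAT2 removes the amino group, and the branched-chain ketoacid dehydrogenase complex then removes the carboxyl group in an irreversible step. That complex is switched off when the kinase BCKDK phosphorylates its E1 alpha subunit and switched on when the phosphatase PPM1K removes the phosphate. The later steps differ for each amino acid and feed acetyl-CoA, acetoacetate or succinyl-CoA into energy metabolism, and the heart is known as a tissue with an active pathway.

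The libraries held between 17119454 and 22811295 counts. Values below are CPM, counts scaled to the library total after TMM normalization over the 9 libraries, unless another scale is named. The first principal component of log2 CPM carried 64.7% of the variance over 15207 genes and did not follow the labels. The library labelled MIRI 2 lay on the sham side at -44.4, where the sham libraries ran from -59.8 to -52.2, and its nearest library by rank correlation was GXNI 1 (rho = 0.982). GXNI 1 lay beside it at -43.5, with sham 1 as its nearest library (rho = 0.984), and GXNI 2 lay between the ends at 18.7. GXNI 3 lay at the other end at 94.4, and its nearest library was MIRI 3 (rho = 0.987). The fold changes published with the study matched these counts when MIRI 2 and GXNI 3 exchanged their labels, as described with the processing. The deposited labels are used first below, and values without those libraries or with their labels exchanged stand beside them. A comparison of all 6 hearts that underwent ischemia-reperfusion with the 3 sham hearts does not depend on that exchange. The label "Cardiomyocytes" did not describe all of the RNA, since endothelial markers had mean log2 CPM values of 6.56 to 7.22 and fibroblast markers of 5.77 to 6.71 beside 11.2 to 11.8 for cardiomyocyte markers. In such tissue RNA, fewer cells of a type and less RNA per cell cannot be told apart. Each group is 3 mice, and no source says whether libraries were prepared together.

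The 250 bases upstream of the RefSeq start sites (GRCm38.p6) were read for 9 of 10 members that matched the promoter table. Of these, 3 windows are shown, those of the phosphatase and kinase of the complex, which act against each other and had unequal ranges across libraries, and that of Mccc2, in which CCAAT on both strands overlaps. Capitals mark CCAAT on either strand (ATTGG on the other) and GGGCGG, the core of the GC box, on either strand. The Ppm1k window is chr6:57535488-57535737 on the reverse strand, the Bckdk window chr7:127903823-127904072 on the forward strand, and the Mccc2 window chr13:100015640-100015889 on the reverse strand.
Ppm1k: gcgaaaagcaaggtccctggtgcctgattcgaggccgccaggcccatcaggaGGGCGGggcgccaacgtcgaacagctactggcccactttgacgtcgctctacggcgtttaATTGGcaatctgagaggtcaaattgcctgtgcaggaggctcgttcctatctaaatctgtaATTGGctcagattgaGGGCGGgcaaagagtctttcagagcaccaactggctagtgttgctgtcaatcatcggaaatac
Bckdk: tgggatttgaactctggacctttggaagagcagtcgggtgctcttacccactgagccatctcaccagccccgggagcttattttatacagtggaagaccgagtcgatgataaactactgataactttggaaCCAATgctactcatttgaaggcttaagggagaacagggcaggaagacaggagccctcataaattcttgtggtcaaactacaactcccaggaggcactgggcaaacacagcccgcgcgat
Mccc2: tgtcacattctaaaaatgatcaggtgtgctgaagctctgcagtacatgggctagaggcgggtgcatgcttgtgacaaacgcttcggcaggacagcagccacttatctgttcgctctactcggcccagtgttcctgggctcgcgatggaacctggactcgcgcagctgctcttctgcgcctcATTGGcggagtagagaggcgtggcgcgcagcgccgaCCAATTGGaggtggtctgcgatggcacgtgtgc
CCAAT was found in 6 of 9 member windows and in 33.8% of all 32851 windows, and GGGCGG in 4 of 9 and in 32.7%. AAGGTCA, the letters that oestrogen-related receptors are known to bind, was found in 0 of 9 member windows and in 4.08% of all windows. The Ppm1k window carried both CCAAT and GGGCGG, while the Bckdk window held 1 CCAAT and no GGGCGG. Both motifs were also found for Bckdhb and Mccc1. Their highest library was 2.21 and 2.11 times the lowest, beside 5.14 times for Ppm1k. A link of these motifs to the ranges was not tested. For Bckdha, Hibch and Ivd the RefSeq start lay inside the GENCODE gene, so part of the window did too, and most of it for Bckdha. A match of letters is a description of the sequence and no measurement of binding.

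In the sham hearts the pathway was well expressed, and the levels per kilobase of exon could be ordered. Ivd, the dehydrogenase of the third step of leucine breakdown, was highest at 79.4 ± 1.81 CPM per kb (SD, n = 3), above 96.8% of tested genes. Bckdha followed at 45.1 ± 1.49 CPM per kb. Bckdhb (30.8), Bcat2 (29.7) and Dbt (28.6 CPM per kb) came next, and neighbours among these had overlapping ranges. Mccc2 (22.1), Bckdk (20.6) and Ppm1k (18.7 CPM per kb) also overlapped from one neighbour to the next. Hibch at 11.2 ± 1.03 and Mccc1 at 9.56 ± 0.366 CPM per kb were lowest, and their ranges did not overlap. Among subunits of the same enzyme, Mccc2 was above Mccc1 and Bckdha above Bckdhb on this scale. The order of the Mccc genes depended on the length used, since the union of exons is 10.952 kb for Mccc1 and 2.802 kb for Mccc2. In CPM it was reversed, with sham means of 105 for Mccc1 and 62.0 for Mccc2. Bckdha (85.7) was above Bckdhb (55.6 CPM) on both scales.

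The first step showed the smallest departure from sham. Bcat2, the mitochondrial transaminase (chr7:45570153-45589711, forward strand), had 116, 112 and 119 CPM in sham 1 to 3, 84.0, 141 and 92.1 CPM in MIRI 1 to 3, and 114, 110 and 71.4 CPM in GXNI 1 to 3. MIRI 2 was the highest of the 9 libraries and GXNI 3 the lowest, GXNI 1 lay within the sham range, and the groups overlapped.

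The second step is carried by the dehydrogenase complex. Bckdha encodes the E1 alpha subunit that the kinase phosphorylates. It had 85.1, 88.8 and 83.2 CPM in sham hearts, 59.8, 84.0 and 46.9 CPM in MIRI hearts, and 80.6, 67.2 and 50.1 CPM in GXNI hearts. All ischemia-reperfusion libraries except MIRI 2 lay below the lowest sham library. Bckdhb encodes the partner E1 beta subunit. Its values were 54.0, 56.9 and 55.9 CPM in sham, 29.2, 58.5 and 26.5 CPM in MIRI, and 45.2, 39.2 and 27.0 CPM in GXNI hearts, with the same 5 libraries below sham and MIRI 2 above it. Dbt encodes the E2 core, the dihydrolipoyl transacylase that holds the complex together. It was measured at 97.0, 94.6 and 95.8 CPM in sham, 43.5, 96.6 and 49.9 CPM in MIRI, and 68.8, 62.7 and 35.4 CPM in GXNI hearts. Dbt had the tightest sham values of the 10 genes, with a coefficient of variation of 1.26%, and GXNI 1, which was at 81.2% or more of the sham mean for the other 9 members, stood at 71.8% for Dbt.

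The regulators of the complex differed from each other. Bckdk, the inhibiting kinase, had 71.5, 81.3 and 75.9 CPM in sham, 53.3, 88.9 and 55.8 CPM in MIRI, and 79.3, 67.2 and 46.2 CPM in GXNI hearts. GXNI 1 was inside and MIRI 2 above the sham range, and the other 4 libraries were below it. Ppm1k, the activating phosphatase (PP2Cm), had 109, 117 and 112 CPM in sham, 35.9, 125 and 30.3 CPM in MIRI, and 99.7, 49.0 and 24.4 CPM in GXNI hearts. No other member spread as far, since the highest Ppm1k library was 5.14 times the lowest, against 1.92 times for Bckdk and 1.89 times for Bckdha, the narrowest. As a share of the sham mean, Ppm1k stood at 111% in MIRI 2 and 88.6% in GXNI 1. The other 4 hearts had 31.9% (MIRI 1), 27.0% (MIRI 3), 43.5% (GXNI 2) and 21.7% (GXNI 3).

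The later steps repeated this order of libraries. Ivd, which oxidises isovaleryl-CoA, had 448, 433 and 430 CPM in sham, 258, 485 and 233 CPM in MIRI, and 450, 382 and 209 CPM in GXNI hearts. MIRI 2 and GXNI 1 were above the highest sham library for Ivd and the other 4 below the lowest. Mccc1 and Mccc2 encode the biotin-carrying and the carboxyl-transferring subunits of methylcrotonyl-CoA carboxylase, the next enzyme of leucine breakdown. Mccc1 had 108, 100 and 106 CPM in sham, 58.0, 111 and 55.8 CPM in MIRI, and 93.9, 76.3 and 52.8 CPM in GXNI hearts. Mccc2 had 57.0, 64.3 and 64.8 CPM in sham, 32.5, 69.1 and 28.4 CPM in MIRI, and 55.9, 47.0 and 28.2 CPM in GXNI hearts. Both subunits were lower than in any sham heart in 5 of 6 ischemia-reperfusion libraries and highest in MIRI 2. Hibch, the hydrolase of 3-hydroxyisobutyryl-CoA in valine breakdown, had 65.9, 74.9 and 62.9 CPM in sham, 38.6, 71.3 and 36.8 CPM in MIRI, and 60.9, 53.6 and 34.9 CPM in GXNI hearts. Its MIRI 2 value fell inside the sham range, and the other 5 libraries were below it.

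**Figure D1:**
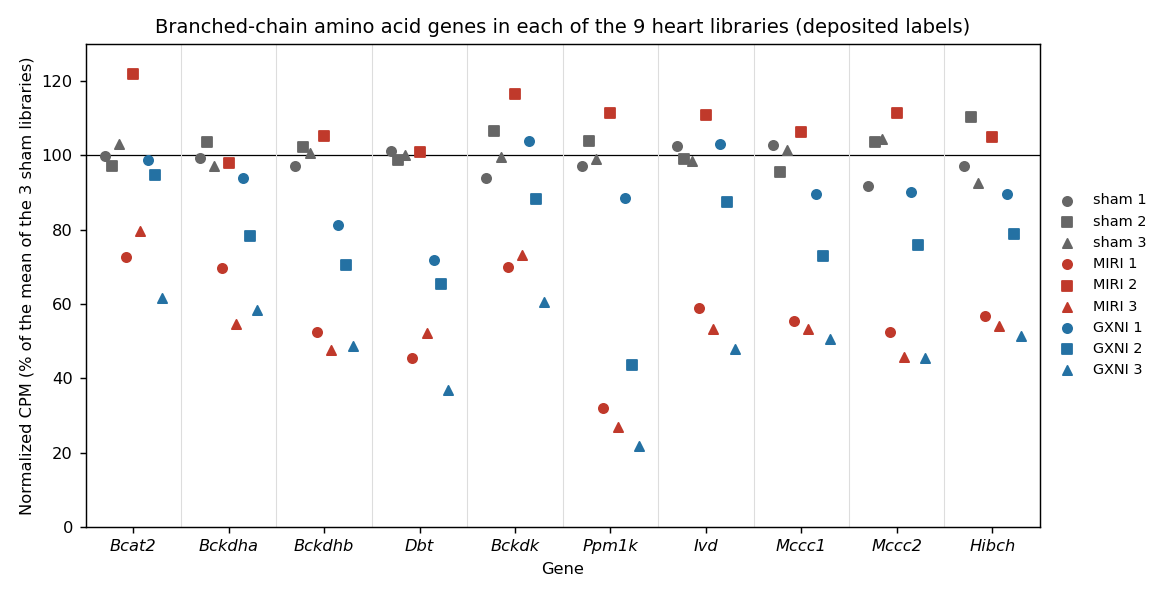
Normalized CPM of each of the 10 genes in each heart library, in percent of the mean of the 3 sham libraries (linear axis from 0), with colour and symbol for group and replicate under the deposited labels. MIRI 1, MIRI 3 and GXNI 3 sit lowest for every gene, Ppm1k reaches 21.7% of the sham mean in GXNI 3, and MIRI 2 reaches 122% for Bcat2.

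Across the 10 genes, MIRI 1, MIRI 3, GXNI 2 and GXNI 3 were below the lowest sham library for 10 of 10 members, GXNI 1 for 7 of 10 (the exceptions were Bcat2, Bckdk and Ivd) and MIRI 2 for 0 of 10. The median difference from the sham mean was -0.83 in MIRI 1, 0.12 in MIRI 2 and -0.91 in MIRI 3 on the log2 scale. It was -0.15 in GXNI 1, -0.37 in GXNI 2 and -1.01 in GXNI 3. Both groups that underwent ischemia-reperfusion therefore held a library close to sham and a library far below it. Over the 9 libraries each member's log2 CPM had a mean Pearson correlation of 0.911 (Bcat2) to 0.967 (Mccc1 and Mccc2) with the other 9, as a description only, since the values share their libraries.

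All 6 ischemia-reperfusion hearts were first set against the 3 sham hearts, the comparison that asks how the injury moved the pathway whatever the drug. All 10 members had lower fitted levels after ischemia-reperfusion, and 0 of 10 were called by edgeR's quasi-likelihood test. A call needs a fold of 1.5 or more together with an unadjusted p no higher than 0.01 throughout. Among the 15207 genes tested, 2.85% were called lower and 5.52% higher. The median log2 fold change of the members was -0.47, beside 0.01 over all genes. Ppm1k had the largest estimate at -0.89 (SE 0.48, adjusted p = 0.2328, edgeR), with a 95% confidence interval of -1.96 to 0.18. Dbt was at -0.69 (SE 0.27, adjusted p = 0.1304, edgeR) and Bckdhb at -0.57 (SE 0.25, adjusted p = 0.1597, edgeR), and their 95% intervals of -1.28 to -0.09 and -1.11 to -0.02 lay below 0. Mccc2 at -0.51, Mccc1 at -0.49, Hibch at -0.46, Bckdha at -0.40 and Ivd at -0.38 were intermediate. Bckdk at -0.23 and Bcat2 at -0.18 were nearest to 0, with adjusted p of 0.4434 and 0.5292 (edgeR).

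This count depended on MIRI 2. Without it 3 of 10 members fell, against 4.76% of all genes called lower, and these were Dbt at -0.88, Bckdhb at -0.73 and Mccc1 at -0.63. Without MIRI 2 and GXNI 3 together 2 of 10 fell, against 3.24% of all genes, with Dbt at -0.77 and Bckdhb at -0.67. The E2 core and the E1 beta subunit were thus called in both of these fits, and Ppm1k, which varied most among the hearts, in neither.

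MIRI against sham addresses the injury alone. Under the deposited labels 0 of 10 members were called, with 2.82% of 14644 genes called lower, and the log2 fold changes ran from -0.82 for Ppm1k to -0.13 for Bcat2 with a median of -0.48. The lowest adjusted p was 0.2234, for Dbt (edgeR). When the library labelled MIRI 2 was left out, 8 of 10 members fell, against 13.3% of all genes called lower, and the median was -0.86. With the labels of MIRI 2 and GXNI 3 exchanged, again 8 of 10 fell, against 16.6% of 14853 genes, and the median was -0.91 beside -0.01 over all genes. All 10 were lower at an adjusted p of at most 0.05 (edgeR), as were 26% of all genes. In that grouping Ppm1k fell by 1.90 on the log2 scale (SE 0.14), with a 95% interval of -2.22 to -1.58. The dehydrogenase complex followed with Dbt at -1.16 (SE 0.13), Bckdhb at -1.01 (SE 0.09) and Bckdha at -0.71 (SE 0.11). Of the later enzymes, Mccc2 was at -1.06, Mccc1 at -0.91, Ivd at -0.91 and Hibch at -0.89. The transaminase Bcat2 at -0.49 (adjusted p = 0.00638, edgeR) and the kinase Bckdk at -0.56 (adjusted p = 0.00255, edgeR) did not reach a fold of 1.5.

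GXNI against MIRI asks what the injection changed after injury. Under the deposited labels 0 of 10 members were called in either direction, where 0.0203% of 14762 genes were called lower and 0% higher. Estimates ran from -0.18 for Dbt to 0.10 for Ivd with a median of -0.02, and every member had an adjusted p of 1 (edgeR). The 95% intervals were wide, from -1.81 to 1.53 for Ppm1k, the widest, and from -0.61 to 0.73 for Bckdha, the narrowest of the 10. With both MIRI 2 and GXNI 3 left out, all 10 estimates were positive with a median of 0.60, and Ivd at 0.78 and Mccc2 at 0.77 were called, 2 of 10 members against 1.52% of all genes called higher (lowest adjusted p = 0.1889, edgeR). With the labels exchanged, 8 of 10 members rose, against 8.56% of 14762 genes called higher, and the median was 0.78. Ppm1k was at 1.61 (SE 0.32, adjusted p = 0.0189, edgeR), Mccc2 at 0.96, Ivd at 0.92 and Dbt at 0.83. Bcat2 and Bckdha, both at 0.57, did not reach a fold of 1.5, and the adjusted p of the 10 members ran from 0.0143 to 0.0319 (edgeR), a level at which 11.5% of all genes were higher. This comparison and MIRI against sham share the MIRI libraries, so a low value there enters both.

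GXNI against sham compares treated injured hearts with uninjured ones. Under the deposited labels 0 of 10 members were called, with 1.54% of 14695 genes called lower, and the median log2 fold change was -0.46. Ppm1k at -0.96 and Dbt at -0.78 were lowest, and the 95% intervals of Dbt (-1.35 to -0.20) and Bckdhb (-1.04 to -0.11) lay below 0. GXNI 1 decided this count, since without it Ppm1k at -1.61, Dbt at -0.95, Bckdhb at -0.74 and Mccc1 at -0.69 were called lower, 4 of 10 members against 7.08% of all genes. Dbt alone was called with DESeq2 (1.46% of genes called lower) and without the filter on low counts (1.52%). With the labels exchanged 0 of 10 were called, against 1.56% of genes called lower, and the estimates ran from -0.33 for Dbt to 0.07 for Bcat2 with a median of -0.14. In that grouping the interval of Ppm1k ran from -0.99 to 0.38, and that of Dbt from -0.71 to 0.04.

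**Figure D2:**
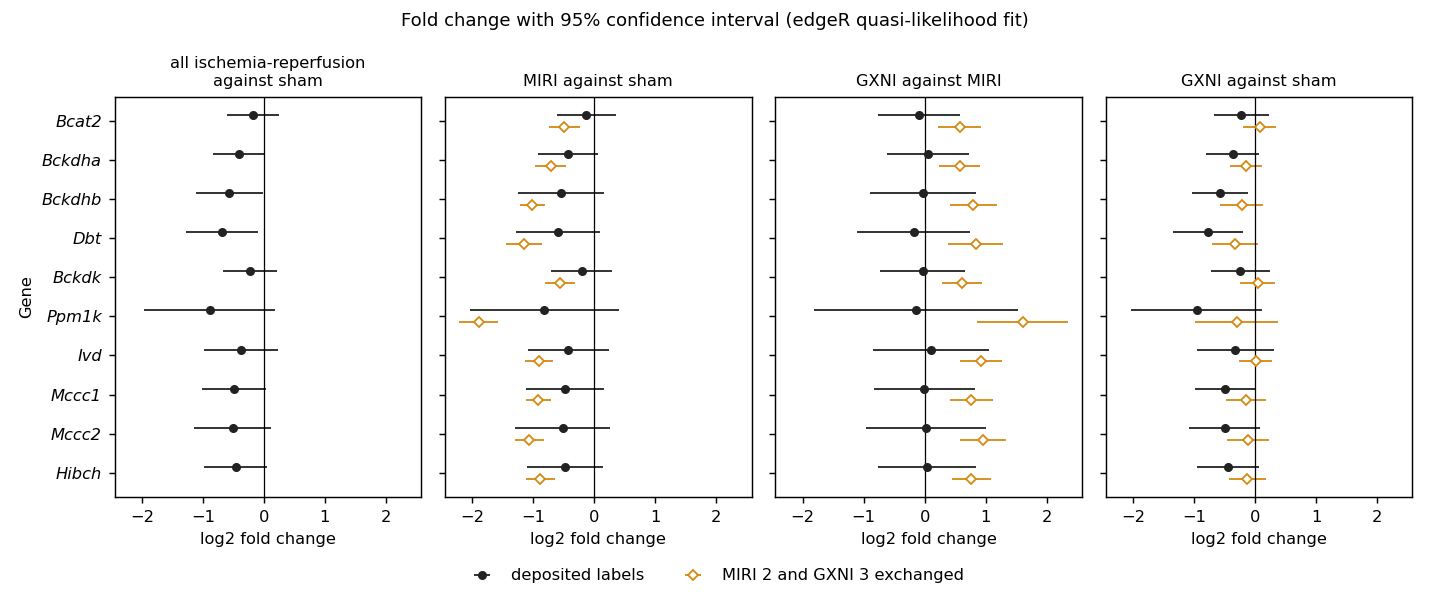
Log2 fold change of each gene with its 95% confidence interval from edgeR's quasi-likelihood fit in 4 comparisons, as filled circles for the deposited labels and open diamonds with the labels of MIRI 2 and GXNI 3 exchanged; the comparison of all ischemia-reperfusion hearts has no diamonds because the exchange does not alter it. In GXNI against MIRI all 10 circles lie between -0.18 and 0.10 and all 10 diamonds between 0.57 and 1.61.

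The kinase and the phosphatase act on the same phosphate in opposite directions, so the difference of their log2 CPM was taken in each heart. Bckdk minus Ppm1k was -0.61, -0.52 and -0.56 in sham 1 to 3. It was 0.57, -0.50 and 0.88 in MIRI 1 to 3 and -0.33, 0.46 and 0.92 in GXNI 1 to 3. Every ischemia-reperfusion heart was above all sham hearts, MIRI 2 by the least. The difference is read only between hearts, since CPM does not account for the unequal length of the 2 genes. The mean was -0.56 ± 0.04 in sham (SD, n = 3) and 0.33 ± 0.61 in all 6 ischemia-reperfusion hearts, a difference of 0.90 (p = 0.0238 in a two-sided exact permutation, which is as small as 6 hearts against 3 can give, and 0.0952 adjusted over the 4 comparisons). MIRI and sham differed by 0.88 under the deposited labels and by 1.35 with the labels exchanged, and GXNI and sham by 0.91 and by 0.44. Each of these 4 values had an exact permutation p of 0.1, the smallest that 3 hearts against 3 can give. GXNI and MIRI differed by 0.03 under the deposited labels (exact permutation p = 0.9), by -0.66 without MIRI 2 and GXNI 3 (exact permutation p = 0.333) and by -0.91 with the labels exchanged (exact permutation p = 0.1). The phosphorylation of the complex itself was not measured.

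**Figure D3:**
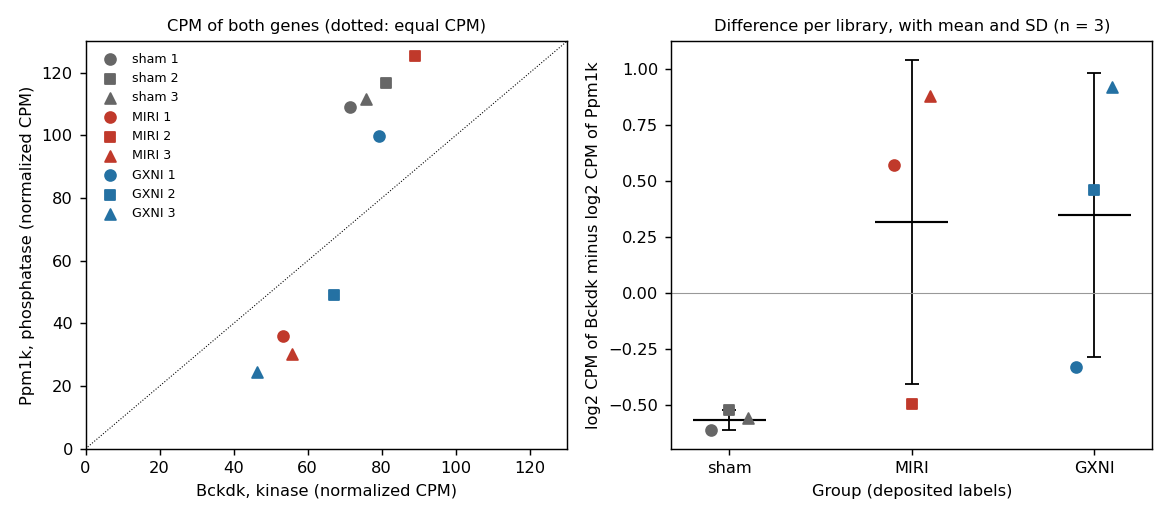
Left, normalized CPM of Ppm1k against Bckdk in each of the 9 libraries, with a dotted line of equal CPM; right, the difference of their log2 CPM per library with the group mean and SD (n = 3) under the deposited labels. The 3 sham libraries, MIRI 2 and GXNI 1 lie above the line, and the other 4 lie below it with differences of 0.46 to 0.92; the line does not account for gene length.

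Of 16 other catabolic genes of the pathway, 15 had negative log2 fold changes in all ischemia-reperfusion hearts against sham, with a median of -0.32, and 0 were called lower. Bcat1, the cytosolic transaminase that does the same reaction as BCAT2 outside mitochondria, was called higher. That is 1 of 16, beside 5.52% of all genes called higher and 2.85% lower. Bcat1 had 1.18, 1.34 and 0.640 CPM in sham, 7.13, 1.96 and 10.1 CPM in MIRI, and 2.80, 5.18 and 12.4 CPM in GXNI hearts. It was low throughout but higher in all 6 ischemia-reperfusion hearts than in any sham heart, with a log2 fold change of 2.64 (SE 0.63, adjusted p = 0.0852, edgeR). Both transaminases thus had estimates of opposite sign.

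With the labels exchanged, 10 of the 16 fell in MIRI against sham and Bcat1 rose by 3.22, against 16.6% of all genes called lower and 19.2% higher, with a median of -0.63 over the list. Mut, the methylmalonyl-CoA mutase that makes succinyl-CoA, was at -1.22, and Pcca, a subunit of propionyl-CoA carboxylase before it, at -1.08. Aldh6a1, which acts late in valine breakdown, was at -1.04 and Auh, the hydratase after methylcrotonyl-CoA carboxylase, at -0.98. Dld, the E3 subunit that the branched-chain complex shares with pyruvate dehydrogenase, was at -0.64, less far from 0 than Bckdha, Bckdhb and Dbt. The other called genes, Acat1, Oxct1, Acad8, Mcee and Pccb, ran from -0.68 to -0.59. In GXNI against MIRI under that exchange Aldh6a1 (0.98), Mut (0.98), Pcca (0.90), Auh (0.66) and Acat1 (0.65) rose, 5 of 16 beside 8.56% of all genes called higher. Bcat1 fell by 1.56, where 10.7% of all genes were called lower. This comparison shares the MIRI libraries with MIRI against sham. Under the deposited labels 0 of 16 were called.

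Of 10 genes for transport and transcriptional control, 6 had negative log2 fold changes in all ischemia-reperfusion hearts against sham, with a median of -0.41. Slc3a2, the heavy chain of the cell-surface carrier of large neutral amino acids, was called higher in all ischemia-reperfusion hearts against sham at 1.19 (SE 0.29, adjusted p = 0.0852, edgeR). It was the 1 of 10 called, beside 5.52% of all genes called higher. Its partner Slc7a5, the light chain LAT1, had 8.65, 5.20 and 6.93 CPM in sham, 38.2, 9.45 and 69.8 CPM in MIRI, and 5.80, 22.2 and 76.3 CPM in GXNI hearts. Slc7a5 was highest in the same 3 hearts in which the catabolic genes were lowest, and was called higher in MIRI against sham, as were 6.15% of all genes (2.51, SE 0.66, adjusted p = 0.0928, edgeR). Slc25a44, the mitochondrial carrier of branched-chain amino acids, was at 0.06 in all ischemia-reperfusion hearts against sham, with an SE of 0.10. The other carriers of the list, Slc43a1 at -0.53 (SE 0.30), Slc43a2 at -0.47 (SE 0.28) and Slc7a8 at 0.67 (SE 0.38), were not called. Klf15, a transcription factor known to act on this pathway, was at -0.48 (SE 0.44) and Ppargc1a, a coactivator of mitochondrial genes, at -0.82 (SE 0.53), and neither was called. With the labels exchanged Ppargc1a (-1.93), Ppara (-1.59), Klf15 (-1.33) and Esrra (-0.71) fell in MIRI against sham, 4 of 10 against 16.6% of all genes, and Slc7a5 (3.15) and Slc3a2 (1.55) rose, 2 of 10 against 19.2%. All 6 had called values of the other sign in GXNI against MIRI under that exchange, which shares the MIRI libraries, where 8.56% of all genes were called higher and 10.7% lower. Klf15 varied among sham hearts as well, from 54.6 to 124 CPM.

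Marker lists differed in how they went with the members. In each of MIRI 1, MIRI 3 and GXNI 3, 7 of 10 cardiomyocyte and 9 of 10 mitochondrial genes were below every sham heart. The median difference from sham in these hearts was 0.19, 0.39 and 0.41 for 6 endothelial markers. For 8 macrophage markers it was 0.22, 0.04 and -0.41. The mean log2 CPM of 10 cardiomyocyte markers ran from 11.6 to 11.7 in sham, 11.2 to 11.8 in MIRI and 11.2 to 11.5 in GXNI hearts, and that of 10 mitochondrial genes from 9.19 to 9.26, 8.83 to 9.38 and 8.81 to 9.14. The mean over 8 neutrophil markers ran from 0.88 to 2.24 in sham, 0.78 to 5.29 in MIRI and 1.62 to 5.05 in GXNI hearts, with MIRI 2 the lowest and MIRI 1, MIRI 3 and GXNI 3 above 5. The median difference from sham in MIRI 1, MIRI 3 and GXNI 3 was -0.83, -0.91 and -1.01 for the 10 members, -0.54, -0.65 and -0.64 for the 16 other catabolic genes, -0.43, -0.46 and -0.53 for the mitochondrial genes and -0.52, -0.45 and -0.46 for the cardiomyocyte markers. It was -0.70, -0.21 and -0.81 for 8 fibroblast markers. In these 3 hearts the members were the lowest of these 5 lists, a difference described here and not tested. In all ischemia-reperfusion hearts against sham 0 of 10 cardiomyocyte and 0 of 10 mitochondrial genes were called, with medians of -0.27 and -0.21, and the 7 neutrophil genes tested had a median of 2.78 with 0 called. With the labels exchanged, 5 of 10 cardiomyocyte genes fell and 1 rose in MIRI against sham (median -0.45), 2 of 10 mitochondrial genes fell (median -0.48), 4 of 8 fibroblast genes fell and 1 rose (median -0.64), and 7 of 7 neutrophil genes rose (median 3.67), where 16.6% of all genes were called lower and 19.2% higher. In GXNI against MIRI under the exchange, 5 of 7 neutrophil genes fell (median -2.93), 2 of 10 cardiomyocyte genes rose (median 0.34), 1 of 10 mitochondrial genes rose (median 0.50) and 1 of 8 fibroblast genes fell (median 0.52), beside 8.56% of all genes called higher and 10.7% lower. Of the macrophage genes under the exchange, 2 of 8 rose in MIRI against sham (median -0.06) and 3 of 8 fell in GXNI against MIRI (median -0.17). Of the endothelial genes, 2 of 6 rose (median 0.32) and 1 of 6 fell (median -0.275) in these comparisons, beside the same shares of all genes. The mean log2 CPM of adipocyte and of atrial markers was highest in MIRI 2, at 1.06 and 2.63, although Adipoq was at or near 0 in every library. Several of these genes had few counts, such as Plin1 with 28 and Sln with 23 in MIRI 2. Cidec (1.72 CPM), Cfd (3.68 CPM), Myl7 (1.78 CPM) and Myl4 (3.51 CPM) were likewise highest in MIRI 2. The more abundant Fabp4 and Nppa were not highest there. Fabp4 had 461 CPM in MIRI 2, but all ischemia-reperfusion hearts (416 to 464 CPM) were below every sham heart (505 to 660 CPM). Nppa had 165 CPM in MIRI 2, above sham (38.3 to 83.5 CPM) but below MIRI 1 (258), MIRI 3 (666) and GXNI 3 (728 CPM). The part of these cell types in the members' values was not tested.

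**Figure D4:**
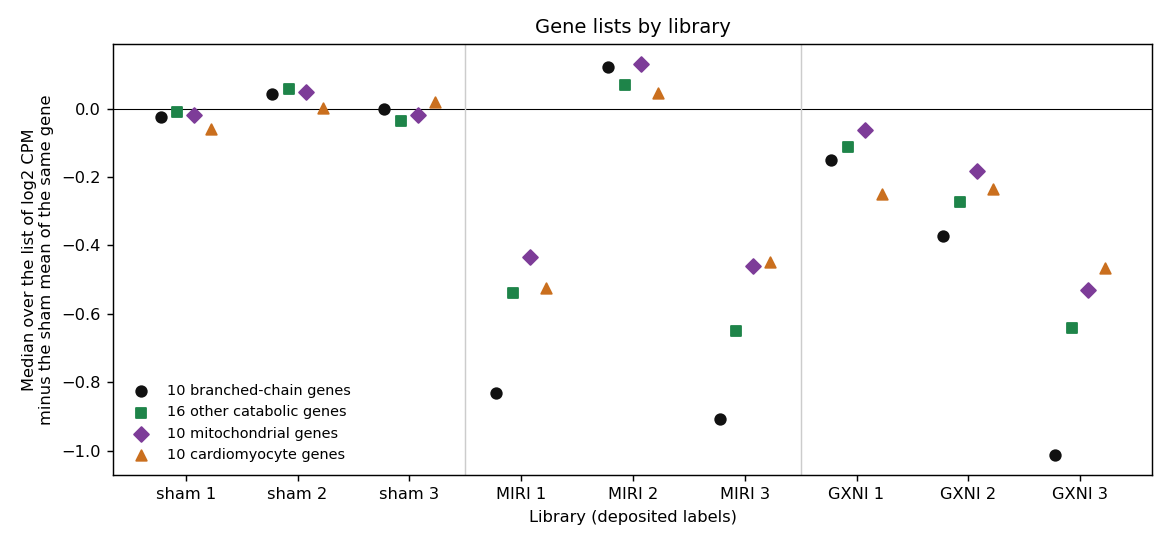
Median over each gene list of log2 CPM minus the sham mean of the same gene, per library under the deposited labels, for the 10 branched-chain genes, the 16 other catabolic genes, 10 mitochondrial genes and 10 cardiomyocyte genes. In MIRI 1, MIRI 3 and GXNI 3 the branched-chain genes lie lowest, from -1.01 to -0.83, while in MIRI 2 all 4 lists lie above 0.

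The genes whose pattern was most like that of the members were ranked by Pearson correlation of log2 CPM with the mean standardised log2 CPM of the 10 genes over the 9 libraries, among 15197 other genes. The highest 10 were Slc25a12, Mrps9, Clcn4, Mppe1, Aldh5a1, Tmem50b, Osbpl1a, Ndufa10, Gfm1 and Tbc1d16, with r from 0.9956 to 0.9918. Slc25a12 is the mitochondrial aspartate and glutamate carrier, Mrps9 a protein of the mitochondrial ribosome, Ndufa10 a subunit of respiratory complex I and Gfm1 a mitochondrial elongation factor. These correlations are descriptions over libraries that all share the first principal component.

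Some members share exonic bases with genes on the opposite strand, and the strand setting of the counting is not given in the sources used here. Bckdha overlaps B3gnt8, which had at most 97 counts in a library. Mccc1 overlaps Mccc1os, with at most 43, Gm15952, with at most 8, and B230207O21Rik, with 0 counts in all libraries, and Bcat2 overlaps 0610005C13Rik, with at most 17. On the forward strand lie Bckdk (chr7:127904082-127910221), Dbt (chr3:116513070-116549981), Bckdhb (chr9:83925145-84124240), Ivd (chr2:118861954-118882909) and Hibch (chr1:52844929-52920986). On the reverse strand lie Bckdha (chr7:25629946-25658981), Ppm1k (chr6:57506502-57535468), Mccc1 (chr3:35959312-36000678) and Mccc2 (chr13:99948530-100015639). All positions are those of GENCODE M21 on GRCm38.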

How the data were processed

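Before deposit the authors trimmed away reads of low quality or with adapter or undetermined bases, mapped the remainder by HISAT2 and summed them per gene by featureCounts of Subread. The submitters' processing notes name the build mm10 and DESeq2. Versions and the strand setting are not given in the sources used here. The deposited counts, 1 column for each mouse, are whole and were not scaled, and there were 0 columns of other samples. A list of gene names gave symbols for 54409 of the 54532 identifiers and none for 123. GENCODE M21 (GRCm38) gave exon lengths, positions and overlapping genes. Totals ran from 17119454 to 22811295 counts.

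Each comparison was fitted on its own libraries with edgeR 4.0.16 in R 4.3.3 (TMM, filterByExpr, quasi-likelihood F test, no covariate). A call took the study's limits, 1.5 for the fold and 0.01 for the unadjusted p, and adjusted p are Benjamini-Hochberg over all genes tested. SE were derived from the F statistic. Log2 CPM has a prior count of 0.5, and CPM per kb divides by the union of GENCODE exons. The kinase and phosphatase difference was tested with exact permutations in SciPy 1.17.1. Alternatives were RLE scaling, no filter, DESeq2 1.42.0, a joint fit of the 9 libraries, a block for replicate numbers, removal of mitochondrially encoded genes, a limit of 0.05 on the adjusted p, each library left out, and MIRI 2 and GXNI 3 left out together or exchanged. The fits were also run on simulated counts with the same dispersion for every gene and no outlying library. The hearts here spread more unevenly, so that run does not gauge the calls in these data. No pair of libraries agreed within sampling noise (smallest chi-square per degree of freedom 14.4, sham 2 and sham 3).

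The members, lists and alternatives were chosen with earlier results of these data known. All 10 members are named, with list genes that were called or chosen for their step, and the 10 genes most alike in pattern. Protein sequences, planned for a few members, are not used here.

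Log2 fold changes of the study's supplementary tables, given in part, were set beside DESeq2 fits to learn the grouping behind them. For MIRI against sham the median absolute difference over 1715 genes was 0.399 under the deposited labels and 4.16e-07 with MIRI 2 and GXNI 3 exchanged. For GXNI against MIRI it was 0.752 over 1918 genes and 1.6e-06 over 1921 genes. Which grouping is right cannot be told from these files. No other use was made of those tables.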

Additional observations from a re-analysis of the deposited data

How the results depend on the processing

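Of the members' log2 fold changes under alternatives, 525 kept their direction and side of the thresholds, 32 became called without a change of sign and 43 changed sign, of which 5 were also called (Bckdhb, Dbt, Bckdk, Ppm1k and Mccc1 in GXNI against MIRI with the labels exchanged). Leaving out 1 library gave 0 to 8 members called lower in MIRI against sham (8 without MIRI 2), 0 to 3 in all ischemia-reperfusion hearts against sham (3 without MIRI 2) and 0 to 4 in GXNI against sham (4 without GXNI 1). Without MIRI 2 and GXNI 3, 2 members were called lower in all ischemia-reperfusion hearts against sham and 2 higher in GXNI against MIRI, and with the labels exchanged 8 were lower in MIRI against sham and 8 higher in GXNI against MIRI. In GXNI against sham, DESeq2 and the fit with no filter each called 1 member lower, Dbt. The other settings called 0 members. The cause was not tested. RLE scaling and leaving out mitochondrially encoded genes changed no member's call.

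In GXNI against MIRI the estimates with the labels exchanged, and then without both libraries, were 0.57 and 0.36 for Bcat2, 0.80 and 0.61 for Bckdhb, 0.83 and 0.51 for Dbt, 0.61 and 0.44 for Bckdk, 1.61 and 1.18 for Ppm1k, and 0.77 and 0.59 for Mccc1. Leaving out each library in turn gave ranges of -0.23 to 0.18 for Bcat2, -0.13 to 0.32 for Bckdha, -0.24 to 0.43 for Bckdhb, -0.39 to 0.27 for Dbt, -0.22 to 0.25 for Bckdk, -0.80 to 0.81 for Ppm1k, -0.14 to 0.51 for Ivd, -0.22 to 0.40 for Mccc1, -0.22 to 0.54 for Mccc2 and -0.14 to 0.41 for Hibch. In GXNI against sham with the labels exchanged Bcat2 was at 0.0744, Bckdk at 0.0435 and Ivd at 0.0093. In MIRI against sham Bcat2 ran from -0.39 to 0.0131 over the libraries left out.

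The difference of Bckdk and Ppm1k in all ischemia-reperfusion hearts against sham ran from 0.78 to 1.06 with 1 library left out, and was 0.96 without MIRI 2 and GXNI 3, where the smallest p the design allows is above 0.05. In GXNI against MIRI it ran from -0.38 to 0.37, and was -0.66 without both and -0.91 with the labels exchanged.

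Whether the replicate numbers pair the mice could not be told. Same-numbered deviations from the group means correlated at -0.09, 0.05 and 0.11 between sham and MIRI. The correlations were -0.45, 0.13 and 0.70 between MIRI and GXNI, and 0.11, -0.08 and 0.12 between sham and GXNI. They rest on few libraries, some with unsettled labels, and so cannot exclude pairing or a shared batch. With the replicate number as a block 0 members were called in all 4 comparisons, and 7, 5, 0 and 5 had an unadjusted p under 0.05 in edgeR's quasi-likelihood test, beside 2, 0, 0 and 2 without it. In GXNI against MIRI the block moved Bckdhb to 0.0322 and Mccc1 to 0.0276, and in all ischemia-reperfusion hearts against sham 912 genes were called higher and 614 lower.

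The spread between hearts, not counting error, was the wider error: no member had fewer than 420 counts in a library. With 3 hearts a group, GXNI against MIRI had no common direction under the deposited labels, where 6 of 10 estimates were negative. Under these labels 10 of 10 were negative without GXNI 1 or without MIRI 3, and 0 of 10 without MIRI 2 or without GXNI 3. With the labels of MIRI 2 and GXNI 3 exchanged 0 of 10 were negative, and these files do not settle which grouping is right.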
